A study of Homo sapiens with 4 samples.

Results

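The genes described here are the protein-coding zinc finger genes of human chromosome 19 whose symbol is ZNF followed by a number, and which had at least 1 enriched window in the authors' table of transcripts bound by YTHDF1. They were picked from the listed genes by gene type, symbol and chromosome, with no further use of a measured value. Being listed needed a window with a q-value of at most 0.05, so membership rests in part on a measured filter. The rule found 105 genes with 318 windows, out of 6679 protein-coding genes with 24754 windows and 7550 genes of any type with 26819 windows. The comparison groups were the 425 other listed coding genes of chromosome 19 (1462 windows) and the 147 listed ZNF genes of the other chromosomes (586 windows).

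The values came from RNA immunoprecipitation sequencing (RIP-seq) in SNU638, an established human gastric cancer cell line. All 4 libraries were from cells that overexpressed YTHDF1 and were exposed to IFN-γ (10 ng/ml, 24 h) after 24 h without serum. The 2 IP-YTHDF1 libraries held RNA pulled down with an anti-FLAG antibody, and the 2 input libraries held RNA before the pull-down. There was no library of cells without IFN-γ or without the overexpression, and none of a pull-down with control IgG. The values thus describe RNA pulled down with an overexpressed reader in treated cells. RNA that came down without binding to the reader cannot be told apart. Each row of the table is a window of 50 bp on 1 strand of 1 gene, and it carries 1 signal value with its p-value and its q-value and names no library. Peaks of the replicates were combined as a union per the study's text, so a listed window may rest on 1 replicate or on both. There is thus no spread between replicates and no depth per library in what follows, and differences between groups of genes are given as descriptions without a test. Windows were listed for 4 of 10 epithelial and gastric markers (40%), namely EPCAM, KRT8, KRT18 and KRT19. CDH1, CLDN18, MUC1, TFF1, TFF2 and CDX2 had none, nor did any of 6 markers of immune, endothelial and mesenchymal cells (0 of 6). The share over all RefSeq coding genes was 31.8%, and a gene without a listed window may still be expressed.

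YTHDF1 is a cytoplasmic protein whose YTH domain binds mRNA carrying N6-methyladenosine (m6A), a mark that the METTL3 and METTL14 methyltransferase places within the consensus DRACH. Most ZNF genes encode C2H2 zinc finger proteins, in which arrays of zinc-coordinating fingers read DNA, and many carry a KRAB domain that recruits TRIM28 and the histone methyltransferase SETDB1 to silence transposable elements. These genes arose largely by tandem duplication and lie in clusters along chromosome 19, so neighbours can be close in sequence. How the authors treated reads that match several such genes is not given in the sources used here, and a value of 1 family member may hold reads of another.

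RNA sequence under the windows could be read for 9 member windows, those lying wholly inside a RefSeq promoter entry (GRCh38.p14, 250 bases before to 50 bases after a start). Stretches of 30 bases from 6 of these windows are shown 5′ to 3′ on the strand of the gene, since they include windows from 1.97 to 3.21 in signal value. Capitals mark a DRACH match, that is A, G or T, then A or G, then A, then C, then A, C or T, searched on the strand of the gene only.
ZNF529, chr19:36573185-36573214, minus strand: cgctgccgggcgaggtcggtccacgtggag
ZNF426, chr19:9538484-9538513, minus strand: gaggcctggcccgctctgctcgtgtctgct
ZNF146, chr19:36235704-36235733, plus strand: tgagaggcaccaGGACTtgggaggcatgtt
ZNF230, chr19:44003011-44003040, plus strand: gcgggtccttctGAACTtgtcaccttcgct
ZNF791, chr19:12610979-12611008, plus strand: ttgacgcgtcaggttgctgtacccctgcat
ZNF473, chr19:50044785-50044814, plus strand: agcctgtatagaGGACAcctggttagatag

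The window of ZNF529 had a signal value of 3.21 and 80% G and C, and that of ZNF426 had 2.93 and 68%. No DRACH letters occurred in either, and the lowest of the ZNF791 windows, at 1.98, had none. The ZNF146 window held 1 match at a signal value of 2.66, the ZNF230 window 1 match at 2.54 and the ZNF473 window 2 matches, 1 of them in the stretch shown, at 1.97. The 3 other readable windows, of ZNF627 (1.82), of ZNF266 (1.96) and the other one of ZNF146 (2.47), had none either, so windows without the letters stood at both ends of the range. In all, 3 of the 9 windows (33.3%) held a match, against 9 of 20 readable windows (45%) of the other coding genes of chromosome 19 and 4 of 14 (28.6%) of ZNF genes elsewhere. Of the 9 windows only that of ZNF627 lay in the promoter entry of its own gene. The others lay in the entry of another gene on the opposite strand. The first 50 transcribed bases of promoter entries, read on the strand of the entry, are thus a different kind of stretch. They held a match in 49.6% of all 35116 RefSeq entries and in 35.7% of the 112 entries of the listed ZNF genes. A match gives letters only, and nothing was measured here on methylation.

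Of the 250 ZNF genes that RefSeq places on chromosome 19, 105 had a listed window (42%) and 145 had none. The background was 31.9% of the 1201 other RefSeq coding genes of chromosome 19, 31.8% of all 20037 RefSeq coding genes and 54.7% of the 267 ZNF genes outside chromosome 19. The share of the chromosome 19 genes thus lay above that of their chromosome and below that of ZNF genes elsewhere. Windows were listed for 13 of the 20 genes chosen for a known role, a known repeat target or a typical cluster place. Among the 13 were ZNF91, ZNF274, ZNF304, ZNF675, ZNF146 and ZNF224. Of the 20, ZNF93, ZNF331, ZNF382, ZNF471, ZNF528, ZNF587 and ZNF611 had no listed window. Another 16 genes on chromosome 19 were picked by other zinc finger names, without a check of the type of finger. Of these, 3 were listed: ZFP30 with 1 window, ZFP36 with 3 and ZSCAN22 with 2.

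The listed members were spread over the chromosome, but unevenly. RefSeq ZNF genes that lie at most 500 kb apart form 8 clusters of 10 or more genes, which together hold 226 genes, 95 of them listed. The remaining 24 genes lie elsewhere, and 10 of them were listed (41.7%). The largest share was in the first cluster from the short-arm end, at 8.51 to 9.79 Mb, with 10 of 14 genes (71.4%), and it includes ZNF317, ZNF121, ZNF561 and ZNF562. The last cluster, at 57.19 to 58.49 Mb near the end of the long arm, followed with 27 of 43 genes (62.8%). It held 112 of the 318 windows and 5 of the 7 members with 9 windows. The lowest share was in the cluster at 19.67 to 24.13 Mb, on the short arm toward the centromere, which includes ZNF91 and ZNF675, where 9 of 37 genes (24.3%) were listed. The other 5 clusters lay between 34.6% and 41.2%. Median signal values ran from 1.58 in the cluster at 55.48 to 56.67 Mb to 2.12 in the cluster at 19.67 to 24.13 Mb, so that the cluster with the lowest share of listed genes had the highest median. The median number of windows tested in a listed gene, computed as described below, was 17 in that cluster. It was 40.5 in the first cluster and 42 in the last. The cluster at 43.53 to 44.50 Mb also had 17, with 39.1% of its genes listed. The part of the number of tested windows in these values was not tested.

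**Figure D1:**
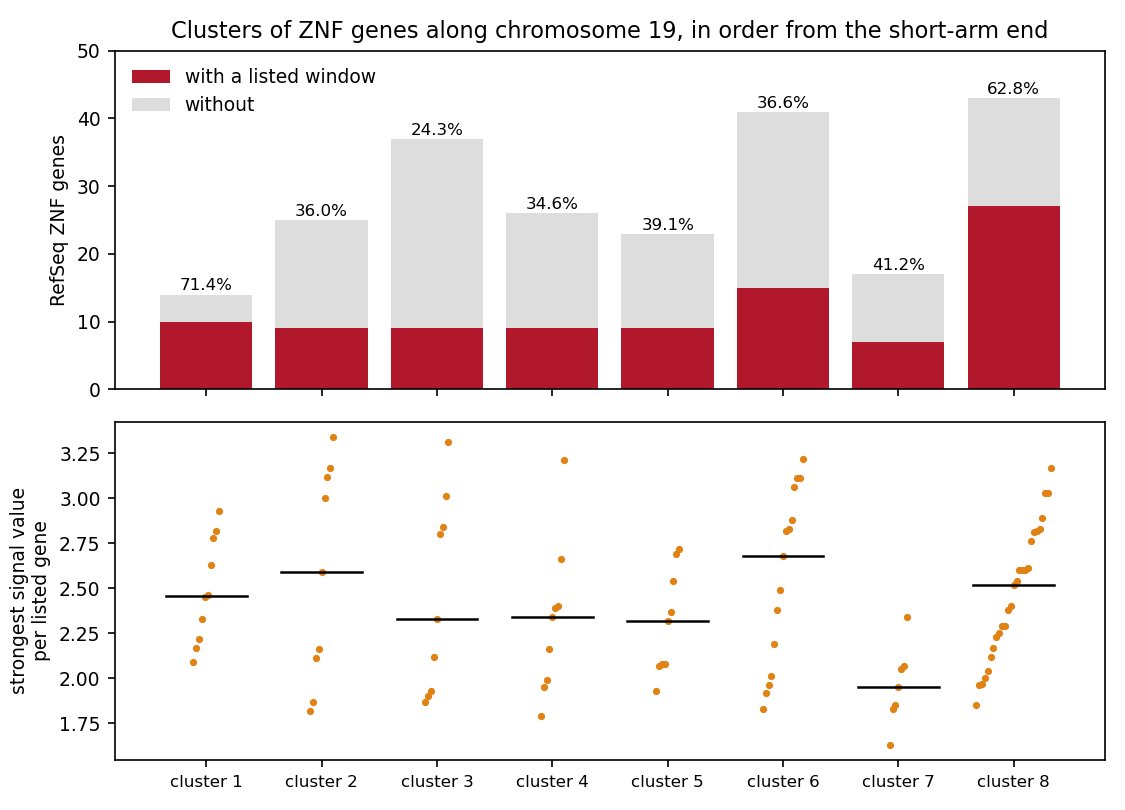
Top, RefSeq ZNF genes in each of the 8 clusters of chromosome 19 with (red) and without (grey) a listed window, with the percent listed above each bar. Bottom, strongest signal value of each listed gene (points) and the cluster median (line); shares were highest in clusters 1 and 8 (71.4% and 62.8%) and lowest in cluster 3 (24.3%).

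The median member had 2 windows, as did the median of the other coding genes of chromosome 19, and ZNF genes elsewhere had a median of 3. A single window was listed in 30 members (28.6%), 2 to 4 windows in 52 (49.5%), 5 to 8 in 16 (15.2%) and 9 in 7 (6.67%). Genes with 9 windows made up 10.8% of the other genes of chromosome 19 and 15.6% of ZNF genes elsewhere. The table lists at most 9 windows a gene, so 9 reads as 9 or more. Listed windows of a member are numbered in order of position, and unlisted ones can be stronger. In ZNF264 the q-values, read as adjusted within the gene, point to an unlisted window with a smaller p-value. Strongest values and places of genes with 9 windows thus cover the listed windows only. The 7 members were ZNF317, ZNF875, ZNF264, ZNF805, ZNF749, ZNF8 and ZNF584. The number of windows that had been tested in a gene was computed from its q-values and p-values. It had a median of 33 in members, 37 in the other genes of chromosome 19 and 44 in ZNF genes elsewhere. In genes with 9 windows it is a lower bound, since windows that passed may be unlisted. Among genes with fewer than 9 windows, the median share of tested windows that were listed was 7.14% in members, 6.90% in the other genes of chromosome 19 and 6.56% in ZNF genes elsewhere.

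**Figure D2:**
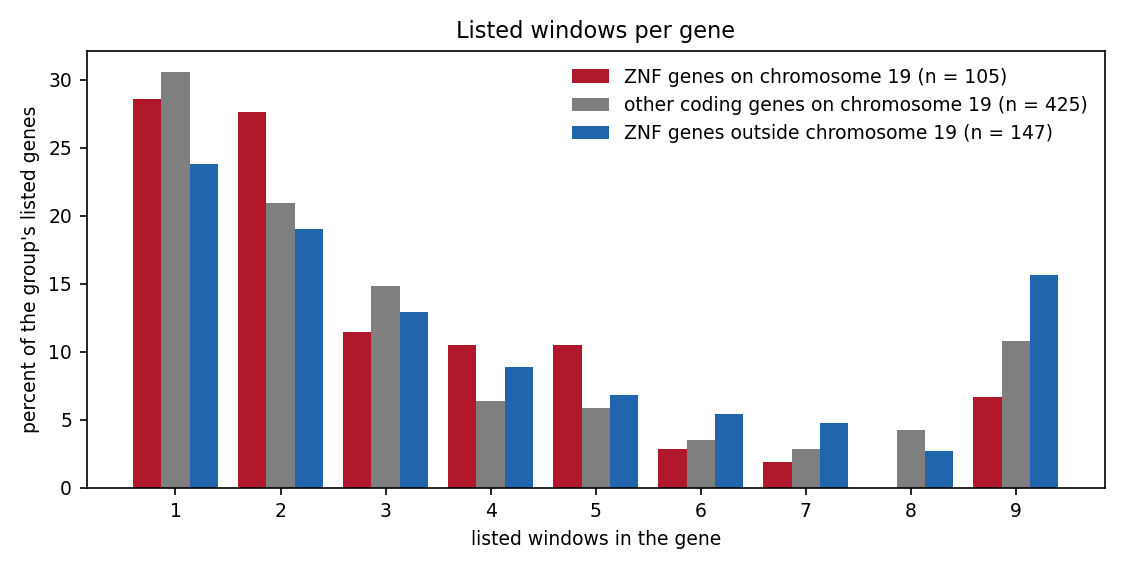
Percent of the listed genes of each group (vertical axis) with 1 to 9 listed windows (horizontal axis), for ZNF genes on chromosome 19 (red), other coding genes on chromosome 19 (grey) and ZNF genes elsewhere (blue). A single window was listed in 28.6% of the members, and 6.67% stood at 9 against 10.8% and 15.6% in the comparison groups.

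Windows of 1 member tended to lie either next to each other or far apart. Of the 213 steps between neighbouring windows of a member, 43.2% were the shortest possible, 50 bp from start to start, and 28.6% were longer than 2000 bp. The median step was 100 bp, against 200 bp in the other genes of chromosome 19, where 37.8% of steps were 50 bp and 29.1% exceeded 2000 bp. Over all coding genes the median was also 100 bp, with 43.2% at 50 bp. In 14 of the 75 members with more than 1 window (18.7%) all windows formed 1 unbroken block, against 11.5% of such genes in the rest of chromosome 19, 15.2% of ZNF genes elsewhere and 13.1% of all coding genes. In 28 members (37.3%) no windows touched, against 35.3% in the rest of chromosome 19, 33.0% in ZNF genes elsewhere and 29.6% over all coding genes. The distance from the first to the last window had a median of 7950 bp in members with several windows and 7100 bp in the other genes of chromosome 19.

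ZNF584 had the most separate regions, 7 from its 9 windows. Its signal values were 1.56, 1.27 and 1.63 at 7222 to 7572 bp from the 5′ end and 1.95, 2.29, 1.91, 1.34, 1.48 and 1.43 in the last 5 kb. All were between 1.27 and 2.29, with the highest near the 3′ end. ZNF317 and ZNF749 had 6 regions each, and ZNF121 and ZNF787 had 5. In ZNF317 a lone window 26 bp from the 5′ end had 2.09, and the other 8, all in the last 5 kb, ran from 0.91 to 1.25. ZNF749 had no window at its start, with 1.23 and 1.48 in the middle and 7 windows from 1.43 to 2.00 in the last 5 kb. ZNF121 had its strongest window in the middle of the gene (2.82) and the other 6 between 1.34 and 1.95. ZNF787 had a start window at 1.58 and 4 windows near the 3′ end at 1.30, 1.41, 1.74 and 2.07. Among listed windows, the strongest thus lay at the start in ZNF317, in the middle in ZNF121 and near the 3′ end in ZNF584, ZNF749 and ZNF787. ZNF584, ZNF317 and ZNF749 had 9 windows and may have unlisted ones.

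The longest distance between the first and the last window was 50100 bp, in ZNF586, where 3 windows at 1.87, 2.04 and 2.04 lay inside the RefSeq gene and another at 1.67 lay beyond its 3′ end. In ZNF432 it was 48800 bp, with 1 window at 2.00 inside the RefSeq gene and a touching pair at 2.10 and 2.49 upstream of its 5′ end. This pair overlapped windows listed for the neighbour ZNF841. ZNF875 spanned 44600 bp, with 3 windows of 1.42 to 1.97 in the middle of the gene, 1 further window at 2.34 and 5 windows of 1.16 to 2.24 near the 3′ end. ZNF430 spanned 36100 bp with 3.01 at its start, 2.78 and 1.69 in the middle and 1.89 near the 3′ end. ZNF160 spanned 33250 bp, with 2.82 and 2.80 at its start, 1.66 in the middle and 1.66 near the 3′ end. In the last pair of genes the start windows were the strongest.

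The signal value is the authors' score and its scale is not given in the sources used here. Only windows with a q-value of at most 0.05 were listed, so the values below cover listed windows and not all tested windows. Whether the signal needed to be listed differed between the groups was not tested. Among members it ran from 0.87 to 3.34 with a median of 1.95 and quartiles of 1.69 and 2.32. The median was 1.73 in the other genes of chromosome 19 (quartiles 1.37 and 2.07), 1.86 in ZNF genes elsewhere and 1.83 in all coding genes. Values of at least 2 made up 43.7% of member windows (139 windows), against 28.7% in the other genes of chromosome 19, 38.7% in ZNF genes elsewhere and 35.8% over all coding genes. At least 3 was reached by 14 member windows (4.40%), against 1.71% in the rest of chromosome 19, 4.27% in ZNF genes elsewhere and 2.80% over all coding genes. Values below 1 made up 1.26% of member windows (4 windows), 4.79% in the rest of chromosome 19, 0.683% in ZNF genes elsewhere and 2.81% over all coding genes. At both ends of the range the members were thus nearer to ZNF genes elsewhere than to the other genes of their chromosome. The strongest window of a gene had a median of 2.37 in members, 2.12 in the other genes of chromosome 19, 2.27 in ZNF genes elsewhere and 2.23 in all coding genes. The q-values did not follow this order: their median was 0.00422 in members and 0.00303 in the other genes of chromosome 19, and 36.5% and 40.2% of windows respectively were at or below 0.001.

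**Figure D3:**
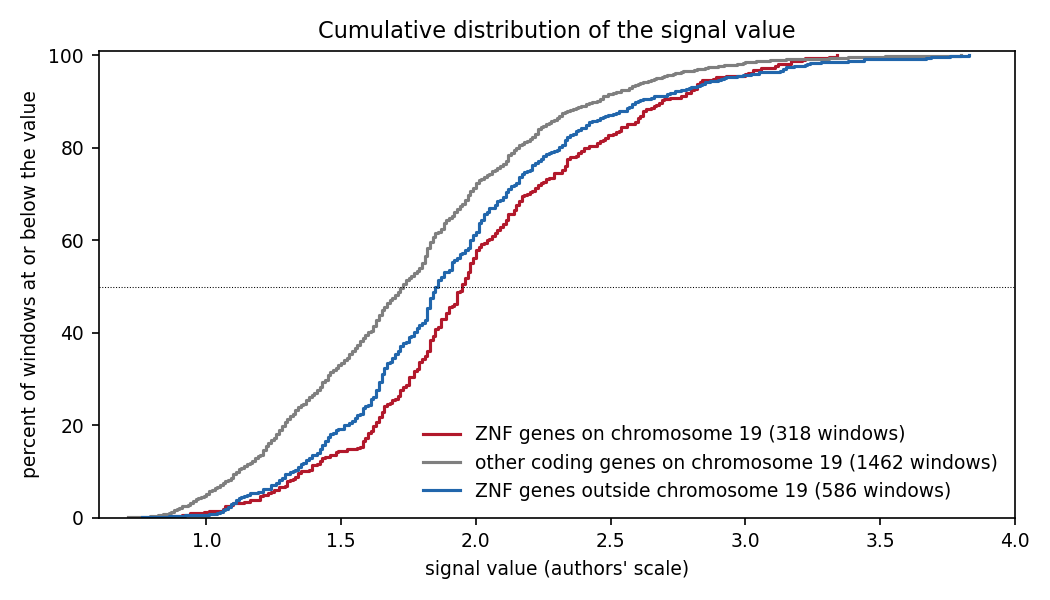
Cumulative percent of windows (vertical axis) at or below a signal value (horizontal axis, the authors' scale) for ZNF genes on chromosome 19 (red), other coding genes on chromosome 19 (grey) and ZNF genes elsewhere (blue); the dotted line marks the median. The medians are 1.95, 1.73 and 1.86.

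In genes with more listed windows the signal values were lower, in members and in the comparison groups. Member windows had a median of 2.205 where the gene had 1 window, 1.95 with 2 to 4, 1.94 with 5 to 8 and 1.68 with 9. The other genes of chromosome 19 had 1.965, 1.82, 1.66 and 1.625 in the same order, below the members in each class. ZNF genes elsewhere had 2.15, 1.86, 1.85 and 1.82, so that with 9 windows the members were the lower. The part of the number of windows in the difference of medians was not tested.

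The 8 members with the strongest windows were ZNF791, ZNF714, ZNF816, ZNF529, ZNF304, ZNF433, ZNF700 and ZNF28. ZNF791 had the highest value of all members, 3.34 at 12824 bp from its 5′ end, with the only member p-value listed as 0. Its neighbouring window had 2.65, and a touching pair at its start had 1.98 and 2.00. ZNF714 had a pair at its start with 2.32 and 3.31 (q = 4.91e-14). The strongest window of ZNF791 lay above that of 96.7% of listed coding genes, and that of ZNF714 above that of 96.3%.

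ZNF816 had a single window, 3.22 at 77 bp from its 5′ end (q = 6.7e-11), and the read-through gene ZNF816-ZNF321P, which overlaps it, was listed with 3.11. The long non-coding RNA gene AC010328.3 had overlapping windows on the same strand at 2.28 and 2.07. ZNF529 also had a single window, 3.21 (q = 5.83e-09), 32344 bp from the RefSeq 5′ end. ZNF304, a KRAB protein that brings TRIM28 and SETDB1 to DNA, had 3.17 at 212 bp from its 5′ end and a block near the 3′ end with 1.86, 1.30, 2.51 and 2.62. For ZNF304 the start window stood above all 4 windows of the block.

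ZNF433 had 3.17 at its start (q = 6.14e-07) and a pair at 1.77 and 1.77 near the 3′ end. ZNF700 had 3.12 at its start (q = 3.9e-12) and 1.73 near the 3′ end. Both start windows overlapped, on the same strand, a window listed for another coding gene. It was AC008770.1 at 3.12 for ZNF433 and AC008770.2 at 2.83 for ZNF700. ZNF28 had 7 windows from 1.65 to 3.11, all upstream of its RefSeq interval and inside that of the neighbour ZNF468. Its strongest window overlapped by 48 bp one listed for ZNF468 at 3.06, and most of its other windows overlapped ZNF468 windows too. The values listed for ZNF28 thus cannot be told apart from signal of ZNF468. Of these 8 genes, 5 had their strongest window within 500 bp of the RefSeq 5′ end: ZNF714, ZNF816, ZNF304, ZNF433 and ZNF700.

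At the other end of the range stood ZNF358, with a single window of 1.27, and ZNF579, with 0.99, 1.34, 1.38 and 1.63. ZNF420, known as a regulator of p53, had a pair at 1.79 and 1.79, and ZNF77 a pair at 1.61 and 1.80. The strongest values of the 4 were lower than all values of ZNF714 and ZNF816.

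**Figure D4:**
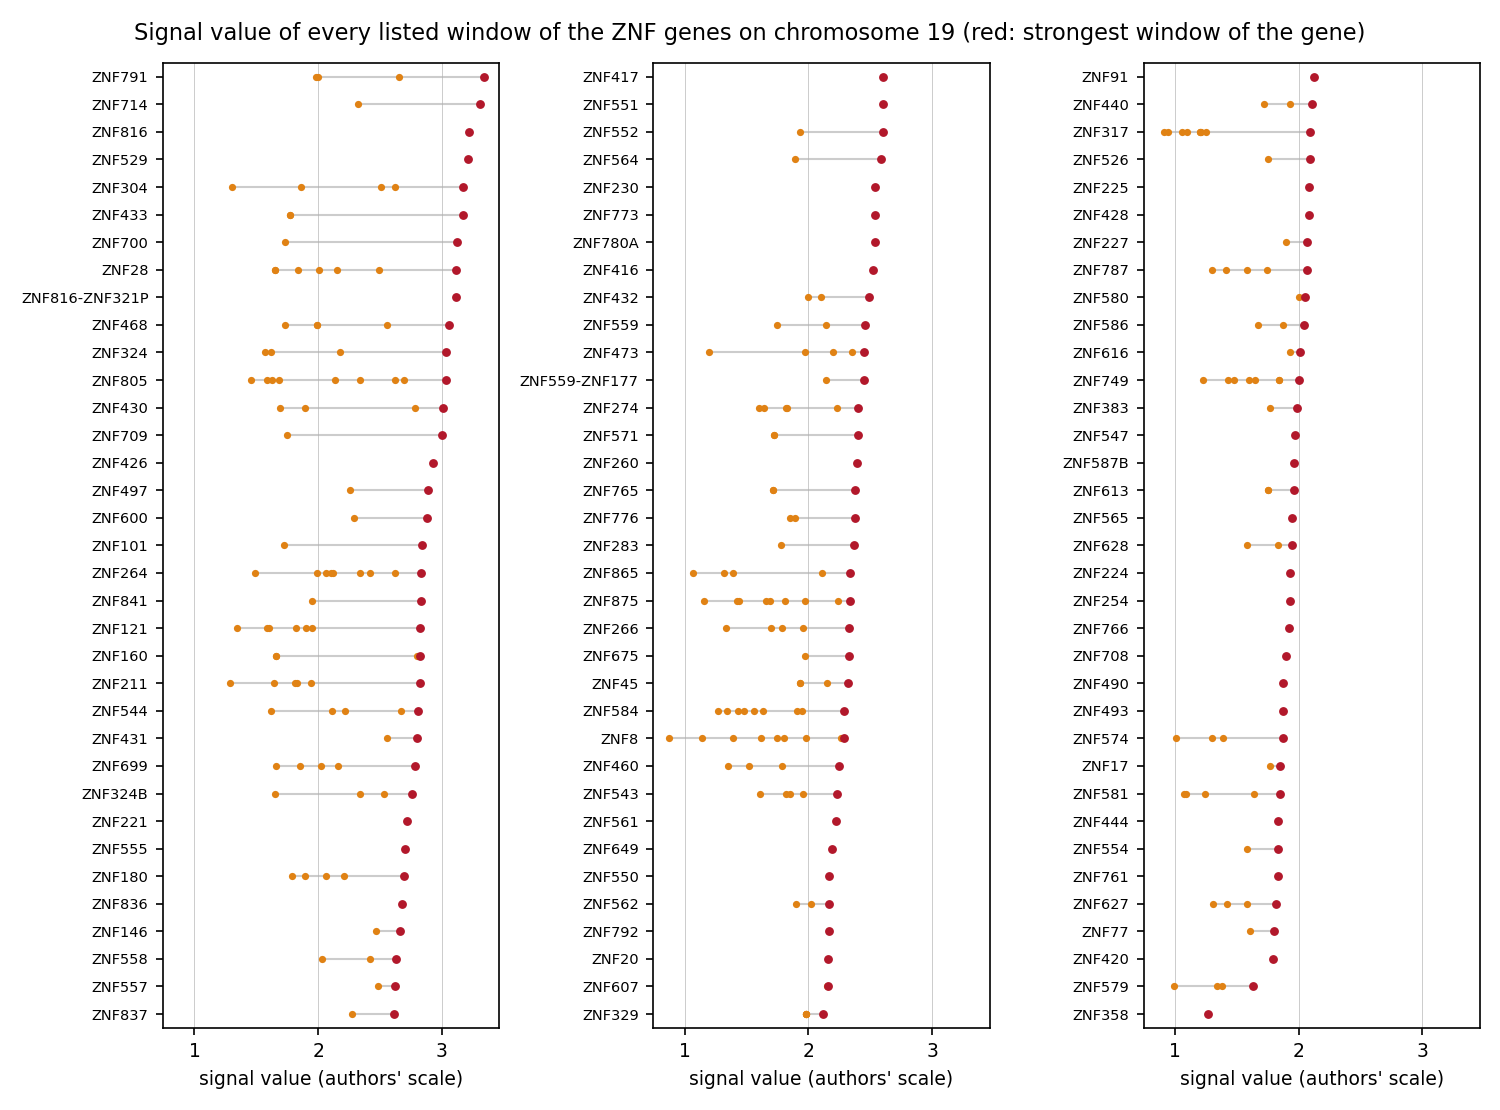
Signal value (horizontal axis, the authors' scale) of each of the 318 listed windows of the 105 ZNF genes on chromosome 19, with genes in order of their strongest window (red) and their other windows in orange. The strongest windows run from 3.34 in ZNF791 to 1.27 in ZNF358.

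Of the members chosen for a known role, repeat target or cluster place, ZNF91, a repressor of SVA retrotransposons, had 1 window at 2.12 (q = 0.00239), inside the gene. ZNF274, which recruits SETDB1 to the 3′ ends of ZNF genes, had 6 windows: 1.83, 1.82 and 1.64 in the first 1000 bp and 2.23, 2.40 and 1.60 farther in. ZNF675, an inhibitor of TRAF6 signalling, had 2.33 and 2.33 at its start and 1.97 inside. The windows of ZNF91, ZNF274 and ZNF675 stayed between 1.60 and 2.40.

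ZNF146, a protein made up almost wholly of zinc fingers, had a pair at 2.66 and 2.47 in the last 5 kb. ZNF224, a KRAB repressor, had 1 window at 1.93 at its start. ZNF180 had a block of 4 at its start with 2.06, 2.69, 1.89 and 2.21 and 1 window of 1.79 near its 3′ end. ZNF180 and ZNF224 lie in the same cluster and both had windows at the start.

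ZNF264 had a start block of 2.34, 1.49 and 2.12 and an inner block of 6 windows from 1.99 to 2.83. ZNF561 had 1 window at 2.22, ZNF562 had 1.90, 2.17 and 2.02, and ZNF765 had 1.71, 2.38 and 1.71, all inside the gene. ZNF473, which takes part in histone pre-mRNA processing and was named for its sequence after its values were seen, had 5 windows with a strongest value of 2.45. Except for ZNF816, ZNF304 and ZNF420, described above, the strongest windows of the 13 listed genes chosen for role, repeat target or cluster place lay between 1.93 and 2.83.

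Place in the gene was taken from the RefSeq interval, with exon, intron and untranslated parts not analysed here. Of the 318 member windows, 73 (23.0%) lay within 500 bp of the 5′ end, 124 (39.0%) in the last 5 kb, 111 (34.9%) in between and 10 (3.14%) outside the interval of their gene. In the other coding genes of chromosome 19, 15.1% lay at the start, 34.2% in the last 5 kb and 47.7% between. ZNF genes elsewhere had 15.7% at the start and 23.2% in the last 5 kb, and all coding genes 23.8% and 20.7%. The share at the start in members thus was above that of the rest of the chromosome and close to that of all coding genes, and the share in the last 5 kb was the highest of the 4 groups. The median RefSeq gene length was 22097 bp in members, 18178 bp in the other listed genes of chromosome 19, 23540 bp in ZNF genes elsewhere and 31297 bp in all listed coding genes, and its part in these shares was not tested.

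Windows at the start had higher signal values than those near the 3′ end. In members the median was 2.04 at the start, 2.06 in between and 1.79 in the last 5 kb. The other genes of chromosome 19 had 1.82, 1.74 and 1.59, lower at each place. Among the 21 members with windows at both ends, the mean at the start was higher in 14, with a median difference of 0.38. The same held in 39 of 55 other genes of chromosome 19 (median difference 0.31) and in 522 of 740 coding genes (0.27). Higher values at the start were thus seen in all of these groups.

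**Figure D5:**
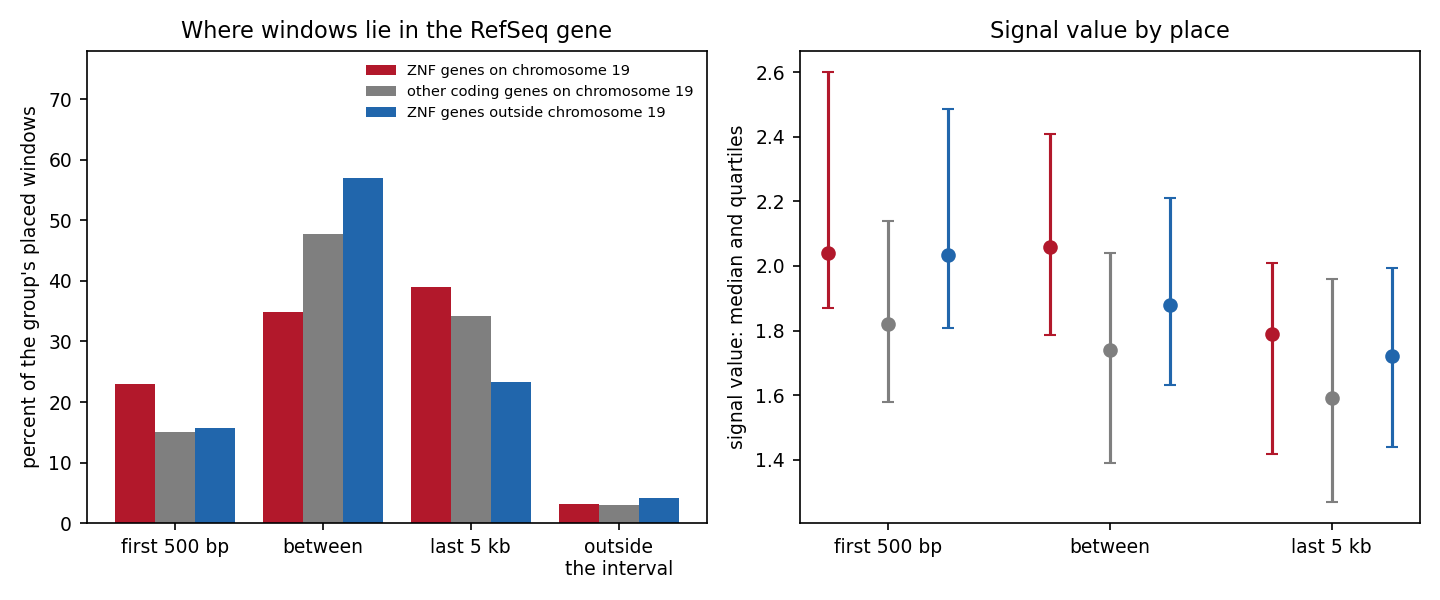
Left, percent of the windows of each group in the first 500 bp of the RefSeq gene, in its last 5 kb, between them, or outside its interval. Right, median signal value (point) and quartiles (bars) by place, for ZNF genes on chromosome 19 (red), other coding genes on chromosome 19 (grey) and ZNF genes elsewhere (blue); member medians are 2.04, 2.06 and 1.79.

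ZNF490 and ZNF791 face away from each other and share a promoter region, and both had windows at their starts. Those of ZNF490 had 1.87 and 1.87 and those of ZNF791 1.98 and 2.00, on opposite strands. The 106 bases between both starts, chr19:12610814-12610919 of GRCh38.p14 on the plus strand and from RefSeq, are 59.4% G and C and hold 8 CG pairs, shown in capitals.
ZNF490 and ZNF791, between the starts: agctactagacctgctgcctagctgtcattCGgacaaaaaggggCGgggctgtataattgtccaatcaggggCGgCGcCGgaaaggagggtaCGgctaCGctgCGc
The RefSeq promoters of 94 members had a median G and C content of 61.5%. Against the strongest signal value it gave Pearson's r = 0.03 and Spearman's rho = 0.05 across these 94 genes, which share their libraries and in part their ancestry. Promoter G and C content thus showed almost no relation to the strongest signal value of a member, wherever in the gene that window lay. Only 23.0% of member windows lay within 500 bp of the 5′ end, and a relation to signal at the promoter itself was not tested.

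Windows of different genes can cover the same bases. Of the 318 member windows, 60 (18.9%) overlapped, on their own strand, a window listed for a different gene, against 14.4% in the other genes of chromosome 19, and 0 overlapped one on the opposite strand. Where both genes were members, they were the neighbours ZNF28 and ZNF468, the neighbours ZNF432 and ZNF841, or a read-through gene and its partner (ZNF559-ZNF177 with ZNF559, ZNF816-ZNF321P with ZNF816). In 26 pairs of a member window and a window of another gene that overlapped by 40 bp or more, the signal values differed by a median of 0.08 and by at most 0.66. Some pairs with less overlap differed by more. A ZNF8 window had 1.98 against 2.73 for ZNF8-ERVK3-1 (39 bp), and a ZNF17 window 1.77 against 2.72 for AC003002.3 (29 bp). Without the overlapping windows 87 members were left, and the difference between the medians of members and of the other genes of chromosome 19 was 0.225, against 0.22 with them. The other coding genes of chromosome 19 include 39 clone-named genes. Some of these, such as AC008770.1 and AC003002.2, overlap member windows, so the same place can count on both sides of the comparison. Without the clone-named genes the difference in median signal value was 0.24.

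The proteins that work with KRAB zinc fingers are encoded on several chromosomes, and 9 of 16 genes of a list of them had a listed window (56.3%), where 31.8% of all RefSeq coding genes did. TRIM28, the corepressor itself and a gene of chromosome 19, had 9 windows from 0.74 to 2.93. SETDB1, which methylates histone H3, had 4 from 1.26 to 1.82, and its cofactor ATF7IP had 5 from 1.68 to 3.21. TASOR, a subunit of the HUSH silencing complex, had 9 from 1.63 to 3.33, and the HUSH subunits MPHOSPH8 and PPHLN1 had none. Of the heterochromatin proteins CBX1 had 3 windows (2.05 to 2.46), and CBX3 and CBX5 had none. DNMT1, UHRF1, CHD3 and SUMO2 had 3, 7, 6 and 1 windows, and HDAC1, HDAC2 and MORC2 had none.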

How the data were processed

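RIP-seq libraries of IP-YTHDF1 (2) and input (2) were represented by 1 deposited table of annotated windows. The deposited signal value and rank are scores of the authors on a scale that is not stated, and the p-values and q-values are likewise those the authors deposited. The submitters' processing notes name STAR 2.7.3a and GRCh38. The study's text describes its peaks as the union of replicates, and how 1 value was then formed for a window is not given in the sources used here. The column names hold no library, so 0 columns with single-library values went unused, depth is unknown, and the planned test of IP-YTHDF1 against input was not made. Of 26820 rows, 1 was a repeat and was dropped.

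Genes were matched to RefSeq (GRCh38.p14) by symbol or by an unambiguous synonym, and all 105 members matched. Strand was taken from the table. Touching windows were joined into regions. The number of tested windows was computed from the ratio of q-value to p-value, read as adjusted within each gene. It is a lower bound where windows that passed are not listed. Positions count from 1.

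The members and gene lists were chosen with earlier results of these data known. Genes named were the 8 members with the largest and the 4 with the smallest strongest signal value. Added to these were the 5 with most regions and the 5 with the longest distance from first to last window. Further genes were 20 with a known role, a known repeat target or a typical cluster place, and 16 partners. Of 16 genes with other zinc finger names the listed ones are named. Ties were taken in order of symbol. Genes described for a sequence, an overlap or a promoter were named after their values were seen. Alternatives were a q-value of 0.001, other comparison genes, joined windows and summaries per gene. Scripts were tested on simulated data. Python 3.11.15, pandas 2.3.3, NumPy 2.4.6 and matplotlib 3.10.9 were used.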

Additional observations from a re-analysis of the deposited data

How the results depend on the processing

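Of 21 alternatives, 17 left the reported value equal or, in the same direction, within 1.5 times, 0 reversed a direction, and 4 moved a value. At a q-value of at most 0.001, 64 genes were left in place of 105, and the median number of windows was 1 in members and 2 in the other genes of chromosome 19, a difference of -1 in place of 0. Against ZNF genes outside chromosome 19, the difference in median windows was also -1 and that in median signal value was 0.09 in place of 0.22. The other alternatives gave differences in median signal value from 0.19 to 0.32, and 5 of the 21 were chosen after the data were seen. No paired analysis was possible because no column names a library. For the same reason the fits with a replicate block and without each replicate were not run. The DRACH search with 50 bp added on both sides was not run, as sequence reached that far for only 5 member windows.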
